A study of Mus musculus with 32 samples.

Results

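The whole lumbar spinal cord was examined 3 weeks after a fracture, which models complex regional pain syndrome in mice, and set against the cord of uninjured mice. The libraries used are those labelled Input, which hold RNA of the homogenised lumbar cord without any selection of cells. Of 32 libraries in the study, 4 enter this comparison: 1 female and 1 male library at 3 weeks, and 1 female and 1 male library without fracture, taken by their labels. All mice, uninjured ones included, carried the genotype the labels spell Aldhl1l-CreER;Rpl22-HA. In it, a Cre recombinase driven by the Aldh1l1 promoter, which is active in astrocytes, lets those cells make a ribosomal protein with an HA tag. The tag allowed ribosome-bound RNA of astrocytes to be pulled down with an anti-HA antibody (libraries labelled Trap), and 12 Trap libraries, 3 of each sex uninjured and 3 of each sex at 3 weeks, show the same genes in astrocytes. The labels give no age, do not say whether each library is from its own animal. The column names give each Input library and the first Trap library of the same sex and week a common stem, without saying that they share tissue. P-values therefore measure only the spread between these libraries, which may be technical.

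The dorsal horn of the lumbar cord receives the sensory fibres of the hind limb, and its interneurons release peptides together with glutamate, GABA or glycine. Peptides such as enkephalin and dynorphin act on opioid receptors, whereas substance P transmits nociceptive input. They are made as precursors, cut in dense-core granules by prohormone convertases and released on firing. Injury of a peripheral axon is known to switch on a set of genes in the injured neuron, among them Atf3, Sprr1a and galanin.

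The 8 Input libraries held 17981133 to 22907909 estimated counts, and the 4 compared here 21550973 to 22907909. Neuronal markers summed to 14113 to 15714 CPM (counts scaled to the size of the library) in these 4, oligodendrocyte markers to 19858 to 24911 and astrocyte markers to 11710 to 12458. The 6 Hox genes of the lumbar level summed to 267.9 to 278.8 CPM. The 3 forebrain markers that passed the filter on low counts summed to 8.81 to 11.4 CPM. Sensory neurons of the dorsal root ganglion left little trace: of 10 markers, 7 were left out by the filter, among them Scn10a and Trpv1, and the other 3 summed to 2.37 to 3.83 CPM. Xist and Y-linked genes matched the sex labels in all 32 libraries. In homogenised tissue, fewer cells of a type and less RNA per cell cannot be told apart.

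At 3 weeks, 182 of 16803 genes tested differed from the uninjured cord (1.08%; adjusted p under 0.05, edgeR's quasi-likelihood test with sex as an additive term). Of these, 73 rose (0.434%) and 109 fell (0.649%), and 15 changed more than 2-fold. Falls did not outnumber rises in every fit: rises made up 40.1% of the calls, but 73.5% without the uninjured female library (34 calls) and 55.8% without the male library at 3 weeks (86 calls). The genes that rose were led by neuropeptide precursors and genes known from axon injury, and those that fell included glial genes and genes induced by glucocorticoids. Without the sex term no gene passed in edgeR's test, although 385 had an unadjusted p under 0.05. Both injured libraries lay above both uninjured ones for 65 of the 73 rises, against 11.3% of all genes tested, and below them for 57 of the 109 falls, against 10.3%. An exact permutation test of 2 against 2 libraries cannot give a p below 0.333, so each call rests on the spread that edgeR shares across genes and across the 8 Input libraries.

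Neuropeptide precursors were the group with the most calls among 34 lists. Lists and members were chosen with earlier results of these data known, so this rank is not independent support. Of 20 genes listed, 10 rose, none fell and 19 had a positive change, against 48.3% of all genes tested. Their median log2 fold change was 0.73, against -0.01 over all genes tested. Penk, the precursor of the enkephalins (chr4:4133531-4138819, GRCm38), stood at 105.3 CPM in the uninjured female, 144.4 in the uninjured male, 203.3 in the female at 3 weeks and 263.6 in the male at 3 weeks. Both injured libraries were above both uninjured ones, and Penk rose by a log2 fold change of 0.91 ± 0.06 (SE; adjusted p = 4.56e-07). Pdyn, which encodes the dynorphins, was at 18.8 CPM in the uninjured female, 17.6 in the uninjured male, 48.1 in the injured female and 51.1 in the injured male. The groups did not overlap, and its log2 fold change was 1.45 ± 0.14 (adjusted p = 0.000478).

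Tac1, the precursor of substance P, was measured at 22.1 and 19.3 CPM in the uninjured female and male and at 45.5 and 40.2 CPM in the injured ones. It rose by 1.05 ± 0.10 on the log2 scale (adjusted p = 1.73e-05). Galanin is an inhibitory peptide that injured sensory neurons are known to make. Gal (chr19:3409915-3414544) was at 4.05 and 5.24 CPM in the uninjured female and male and at 14.1 and 19.6 CPM at 3 weeks, a log2 fold change of 1.86 ± 0.16 (adjusted p = 5.16e-06). Crh, corticotropin-releasing hormone, went from 0.977 and 0.789 CPM to 5.72 and 4.90 CPM, with a log2 fold change of 2.58 ± 0.30 (adjusted p = 0.000206). In each of these genes the lower injured library exceeded the higher uninjured one.

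The other listed precursors that rose included Npy (0.97 ± 0.13), an inhibitory peptide of dorsal horn interneurons, and Calca (0.91 ± 0.15), the gene of calcitonin gene-related peptide. Calca was not called when only the 4 libraries compared were fitted. Its ratio of 3 weeks to uninjured was 1.44 in the female and 2.44 in the male. Rises were also found for Pnoc (0.76 ± 0.12), the nociceptin precursor, Adcyap1 (0.72 ± 0.10), which encodes PACAP, and Sst (0.59 ± 0.07), somatostatin. The 10 members that were not called ranged from -0.38 for Calcb, the second CGRP gene, to 0.85 for Trh. Nms, neuromedin S, was outside the list and rose by 1.61 ± 0.35 (adjusted p = 0.036). Its call was kept in 8 of the 15 alternatives in which it had an adjusted p, with changes of 1.32 to 1.82. Uts2b, a urotensin-like peptide also outside the list, went the other way (-1.35 ± 0.26, adjusted p = 0.0158). The number of listed precursors that rose was 8 to 11 in all 16 alternatives that kept the sex term, including those without each Input library and with trends in GC content or transcript length removed.

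**Figure D1:**
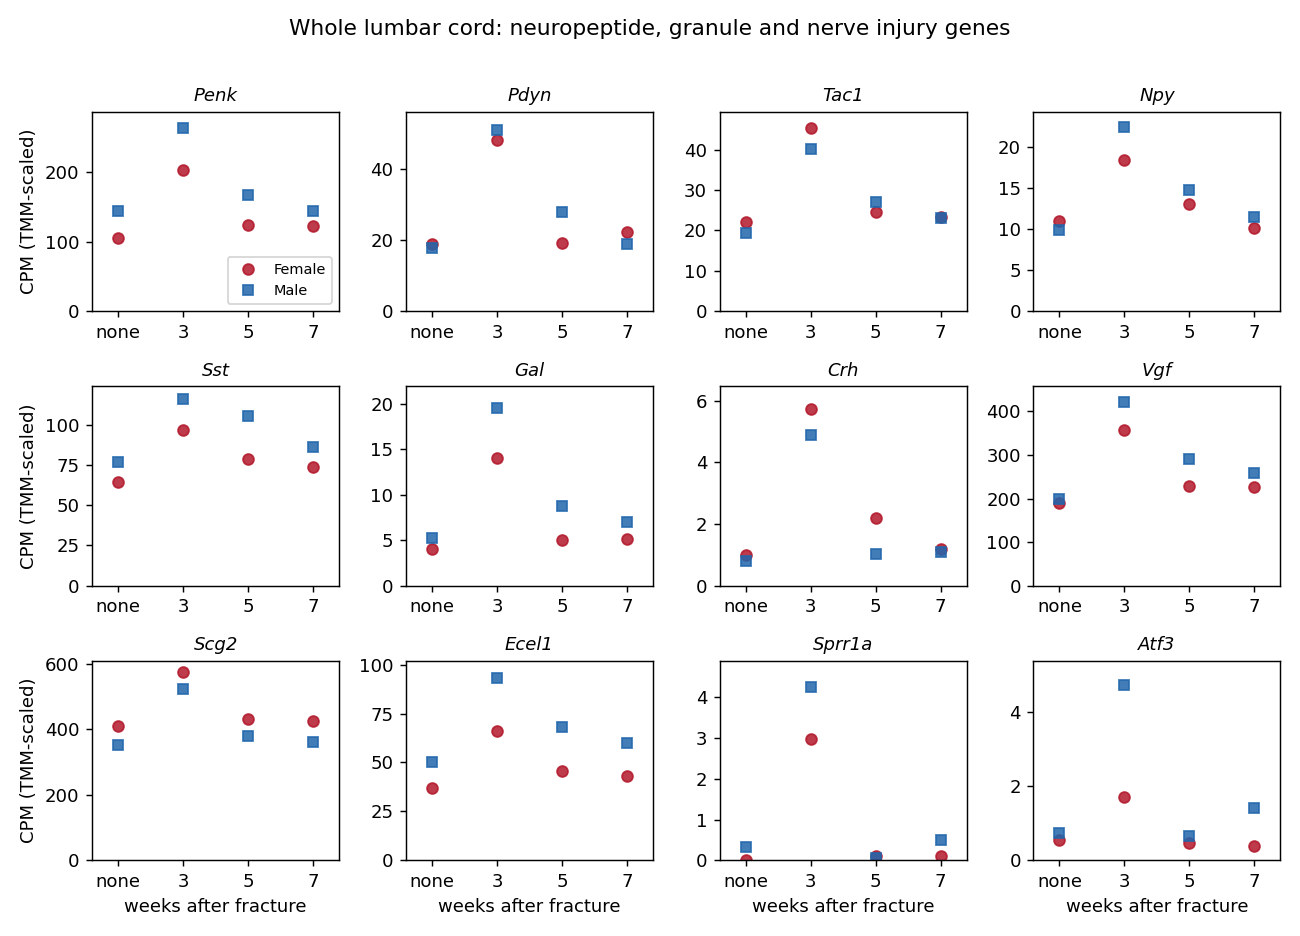
Level of 12 genes in the 8 Input libraries, in CPM on a linear axis from 0, against weeks after fracture (none, uninjured; circles, female; squares, male; each point 1 library). Both libraries at 3 weeks lie above both uninjured ones in every panel, for example 203.3 and 263.6 CPM against 105.3 and 144.4 CPM for Penk.

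The machinery that packs and cuts peptides showed 4 rises and no fall among 11 granule genes. Their median log2 fold change was 0.20, with 6 positive and 5 negative. Vgf, a granule protein that is itself a source of signalling peptides (chr5:137026392-137033351), was at 190.2 CPM in the uninjured female and 199.6 in the uninjured male, and at 357.1 and 422.8 CPM at 3 weeks. It had the smallest adjusted p of all genes, 1.65e-07, with a log2 fold change of 0.99 ± 0.06. Scg2, secretogranin II, was at 410.3 and 353.1 CPM in the uninjured female and male and at 575.6 and 523.0 CPM at 3 weeks, a rise of 0.53 ± 0.05. The convertase Pcsk1 rose by 0.40 ± 0.09, with overlapping groups, and the carboxypeptidase Cpe by 0.22 ± 0.05. Pcsk1 was not called with DESeq2 as the test. Other granule genes did not move with them: chromogranin A (Chga) had a change of -0.00 ± 0.05 and Scg5 of -0.03 ± 0.07. Ptprn, a membrane protein of dense-core granules that was not on the list, rose by 0.47 ± 0.06.

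Genes known from axon injury gave 9 rises among 17 tested members and no fall, with a median of 0.39; 4 of the 9 (Gal, Npy, Adcyap1 and Crh) are also in the peptide list and Vgf is in the granule list. Sprr1a, a small proline-rich protein of regrowing axons (chr3:92483952-92485895), was at 0.0 and 0.325 CPM in the uninjured female and male and at 2.98 and 4.26 CPM at 3 weeks. It had 7 counts in both uninjured libraries and 164 at 3 weeks, a ratio of 22.8 with a counting interval of 10.8 to 57.7. The transcription factor Atf3 was at 0.558 and 0.742 CPM uninjured and at 1.69 and 4.73 CPM at 3 weeks, where the male library was the higher. Its log2 fold change was 2.29 ± 0.37, and the call was lost without the uninjured male library (1.65) and without the male library at 3 weeks (1.91).

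Ecel1, a peptidase induced in injured neurons, stood at 36.9 and 50.3 CPM in the uninjured female and male and at 66.2 and 93.4 CPM at 3 weeks, a rise of 0.87 ± 0.07. Gap43, a growth cone protein, rose by 0.39 ± 0.06. Other genes of the same list were close to no change, among them Jun (0.05 ± 0.09), Gadd45a (0.05 ± 0.12) and Csf1 (0.09 ± 0.08). The number that rose was 5 to 9 in the 16 alternatives with the sex term.

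Promoter windows of 3 of these genes are shown because they carry short motifs known to bind activity- and injury-regulated factors. They are the 250 bases before the start in RefSeq (GRCm38.p6), 5′ to 3′ on the gene's strand: Sst at chr16:23890845-23891094, Scg2 at chr1:79440027-79440276 and Sprr1a at chr3:92485882-92486131, all 3 on the minus strand. Capitals mark TGACGTCA, the palindromic cAMP response element, in Sst and Scg2, and TGAGTCA, the AP-1 element, in Sprr1a.
Sst: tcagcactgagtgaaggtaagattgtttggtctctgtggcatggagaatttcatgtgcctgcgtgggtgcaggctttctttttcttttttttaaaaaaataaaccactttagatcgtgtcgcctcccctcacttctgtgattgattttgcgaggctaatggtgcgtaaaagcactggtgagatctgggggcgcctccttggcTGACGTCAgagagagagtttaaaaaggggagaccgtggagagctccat
Scg2: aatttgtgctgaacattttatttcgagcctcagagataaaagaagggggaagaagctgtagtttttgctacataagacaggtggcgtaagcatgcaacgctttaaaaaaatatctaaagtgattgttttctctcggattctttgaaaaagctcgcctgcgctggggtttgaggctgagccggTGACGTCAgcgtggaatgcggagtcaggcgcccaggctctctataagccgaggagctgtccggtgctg
Sprr1a: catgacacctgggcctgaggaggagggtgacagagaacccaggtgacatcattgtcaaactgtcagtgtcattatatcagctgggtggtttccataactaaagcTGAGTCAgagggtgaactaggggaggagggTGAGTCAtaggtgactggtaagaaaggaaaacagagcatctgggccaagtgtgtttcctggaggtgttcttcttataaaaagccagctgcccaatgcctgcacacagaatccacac
The element TGACGTCA began 48 bases before the start in Sst and 68 bases before it in Scg2. TGAGTCA began 146 and 116 bases before the start of Sprr1a. Searched on both strands, where TGACGTCA reads the same, TGACGTCA was present in 3 of 46 genes that rose and had a window (6.52%; Pcsk1, Scg2 and Sst), in 3 of 92 that fell (3.26%) and in 2.93% of 12125 genes tested. TGAGTCA or its reverse complement was in 5 of 46 that rose (10.9%), 4 of 92 that fell (4.35%) and 4.0% of genes tested. These matches describe the windows and were not tested as a group; promoters of Vgf, Penk, Crh and Pnoc were not analysed here.

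Neuronal genes as a whole did not move with the peptides. None of 18 neuronal markers was called, and their median was 0.03. None of 15 tested receptors for peptides and opioids was called: Oprm1, the mu opioid receptor, was at 7.77 and 3.90 CPM uninjured and at 5.54 and 3.05 CPM at 3 weeks (-0.44 ± 0.20), with overlapping groups. No gene of 18 induced within minutes of firing was called either; Fos had a change of -0.42 ± 0.28 and Npas4 of 0.57 ± 0.34. Of 24 genes of synaptic transmission only Stx1a, a SNARE protein of vesicle fusion, rose (0.51 ± 0.11). Stx1a was not called with DESeq2 as the test. Of 20 neuronal ion channels only Kcna2, a potassium channel of the juxtaparanode, fell, by 0.25 ± 0.06. The Kcna2 call was lost with the length trend removed. Among 10 motor neuron markers, Calca rose and Chodl, a marker of fast motor neurons, fell by 0.53 ± 0.11.

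**Figure D2:**
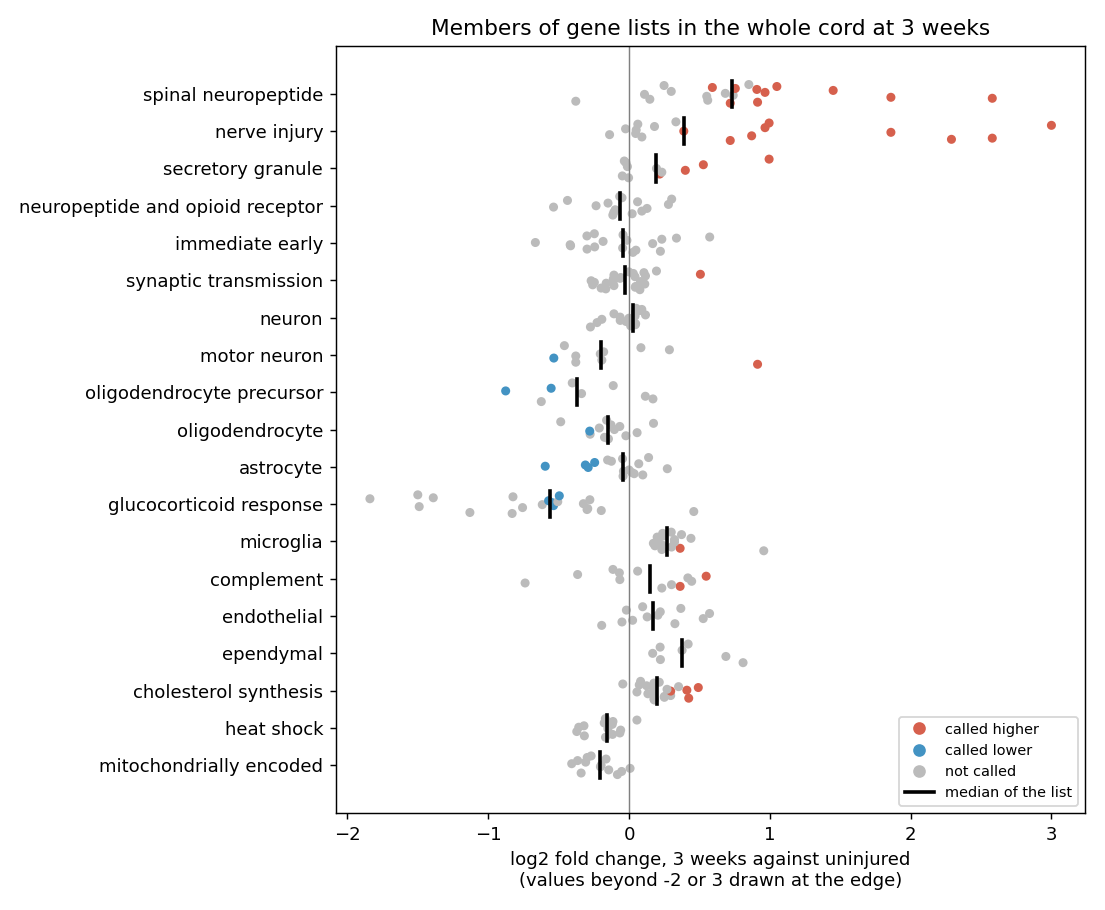
Log2 fold change at 3 weeks against uninjured in the whole cord for the members of 19 gene lists (each point 1 gene; red called higher, blue called lower, grey not called; black bar the list's median; Sprr1a, at 4.43, is drawn at the right edge). Peptide precursors (median 0.73) and nerve injury genes (0.39) lie to the right, glucocorticoid-induced genes (-0.56) to the left, and neuronal markers (0.03) at 0.

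Immune genes gave few calls. All 16 microglial markers had a positive change, against 48.3% of all genes tested, and their median was 0.27. C1qb was the 1 marker called (0.36 ± 0.08). That call was lost with the GC or the length trend removed, and without each of the 4 libraries compared. Summed over the list, microglial markers were at 464.7 and 548.7 CPM in the uninjured female and male and at 584.1 and 616.9 CPM at 3 weeks. Fcgr1, an Fc receptor of microglia and macrophages, rose by 1.30 ± 0.24. Its call was kept in 12 of the 16 alternatives in which it had an adjusted p. Of 12 complement genes, C1qb and C4b (0.55 ± 0.10) rose. The C4b call was lost with the GC trend removed, and its change ranged from 0.36 to 0.73 over the alternatives. None of 8 tested cytokines, 16 interferon genes or 14 reactive astrocyte genes was called, and Gfap had a change of 0.27 ± 0.07 with an adjusted p of 0.134.

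Among the other lists, 4 of 22 cholesterol genes rose. Of the 22, 21 had a positive change, against 48.3% of all genes tested, with a median of 0.20. Insig1, a brake on sterol synthesis, rose by 0.30 ± 0.06, and the synthetic enzymes Mvd and Dhcr7 by 0.49 ± 0.10 and 0.42 ± 0.09. The count of cholesterol genes ranged from 0 to 9 over the 16 alternatives. Dbp, an output gene of the circadian clock, rose by 0.91 ± 0.08, while the other 15 clock genes tested were not called. No listed member was called in the lists of lumbar Hox, forebrain, sensory neuron, endothelial, mural, fibroblast, Schwann cell, ependymal, blood, collagen, heat shock, unfolded protein response, mitochondrially encoded or ribosomal protein genes. Calls outside those lists, chosen after their values were seen, included rises of Vwf, the von Willebrand factor of endothelial cells (1.11 ± 0.16), Notch3, a receptor of mural cells (0.67 ± 0.10), and Hoxb9 (0.42 ± 0.07), and falls of the small heat shock protein Cryab (-0.28 ± 0.06) and the chaperone Dnajc3 (-0.36 ± 0.08).

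The genes that fell included markers of the oligodendrocyte lineage. Gpr17, a receptor of precursors that are about to myelinate, was at 91.0 CPM in the uninjured female, 61.6 in the uninjured male, 46.0 in the female at 3 weeks and 36.6 in the male at 3 weeks. Both injured libraries were below both uninjured ones, and Gpr17 fell by 0.88 ± 0.09 on the log2 scale (adjusted p = 0.00011). Neu4, a sialidase of the same stage, fell by 0.55 ± 0.12, but was not called with DESeq2 as the test. These were the 2 falls among 8 precursor markers, whose median was -0.37, with 6 negative and 2 positive. Among 13 markers of mature oligodendrocytes, Mal, a myelin proteolipid, fell by 0.28 ± 0.05, and their median was -0.15.

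Of 16 astrocyte markers 4 fell and none rose. The list as a whole was near no change, with a median of -0.04 and 7 of the 16 positive. Gjb6, the connexin 30 gene, was at 164.1 and 137.6 CPM in the uninjured female and male and at 97.7 and 101.6 CPM at 3 weeks, a fall of 0.59 ± 0.08. Gja1, connexin 43, fell by 0.29 ± 0.06, glutamine synthetase (Glul) by 0.31 ± 0.06 and S100b by 0.24 ± 0.05. Glul was not called when only the 4 libraries compared were fitted. The S100b call was kept in 10 of 17 alternatives. Aqp4 (0.02 ± 0.11) and Aldh1l1 (0.10 ± 0.07) were not called. The groups overlapped for Gja1, whose call was lost with the GC trend removed and without the uninjured female, the uninjured male or the male library at 3 weeks, and that of Gjb6 was kept in all 16 alternatives with the sex term.

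Genes induced by glucocorticoids were lower as a list: 4 of 20 fell, none rose, 19 were negative and the median was -0.56. Over all genes tested, 8681 of 16803 were negative. Tsc22d3, which encodes the glucocorticoid-induced leucine zipper, was at 224.4 and 218.7 CPM uninjured and at 146.4 and 169.4 CPM at 3 weeks, a fall of 0.49 ± 0.08. Mt2, Klf9 and Pdk4 fell by 0.55 ± 0.08, 0.54 ± 0.10 and 0.57 ± 0.12. Sgk1, Fkbp5 and Plin4, classical targets of the receptor, had larger changes that were not called: Sgk1 was at 205.7 and 122.6 CPM uninjured and at 65.7 and 59.9 CPM at 3 weeks. In all 3 the uninjured female stood well above the uninjured male. Summed over the list, the uninjured female library was at 1818 CPM and the uninjured male at 1321, against 992.4 and 1053 CPM at 3 weeks. Without the uninjured female library 0 members were called and the median was -0.32, and without the uninjured male library 15 were called.

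**Figure D3:**
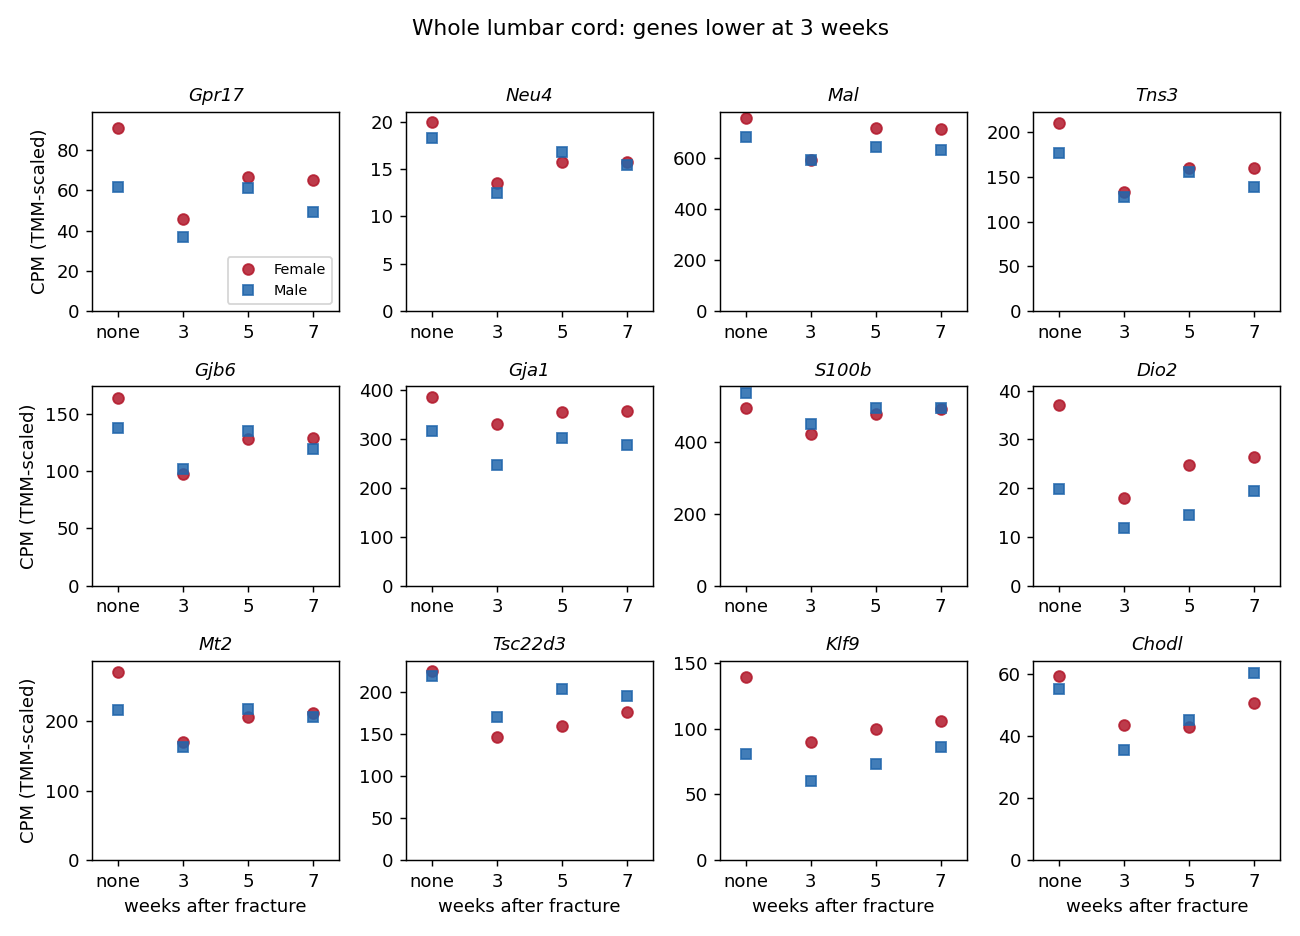
Level of 12 genes that fell at 3 weeks in the 8 Input libraries, in CPM on a linear axis from 0 (none, uninjured; circles, female; squares, male; each point 1 library). The libraries at 3 weeks lie below both uninjured ones for Gpr17 (46.0 and 36.6 CPM against 91.0 and 61.6 CPM), and overlap with them for Gja1 and Klf9.

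Further falls were found for Plekhf1, an endosomal protein (-0.93 ± 0.14), Dio2, the deiodinase that activates thyroid hormone in astrocytes (-0.92 ± 0.12), Uts2b, a urotensin-like peptide (-1.35 ± 0.26), and Tns3, a focal adhesion protein (-0.57 ± 0.06). Gdf1 had 107 counts in the uninjured libraries and 0 at 3 weeks, at least 36.6-fold lower at a floor of 3 counts over the group. The gene lies within the annotated span of Cers1 on the same strand and was also at 0 at 7 weeks, so its value is uncertain. Mat2a (-0.57 ± 0.10) has an unnamed copy with identical values.

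Female and male libraries differed in GC content and transcript length, and the genes that fell differed from other genes in the same measures. Of the 109 genes that fell, 99 (90.8%) were higher in the uninjured female than in the uninjured male library, against 20 of 73 that rose (27.4%) and 49.3% of all genes tested. The median GC content of the longest transcript was 44.9% for genes that fell, 54.4% for genes that rose and 49.7% over all genes. Its median length was 4492 bases for genes that fell, 2697 for genes that rose and 3260 over all genes. The slope of a library's levels on transcript GC content went from -2.61 in the uninjured female to -1.7 at 3 weeks, and from 1.23 in the uninjured male to 2.93, so the slope rose in both sexes. With the GC trend removed, 59 of the 73 rises and 71 of the 109 falls were still called. With the length trend removed, 66 and 91 were. Among the Input libraries, the column names of the male ones carry a prefix that those of the female ones lack, and what it marks cannot be told apart from sex there.

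**Figure D4:**
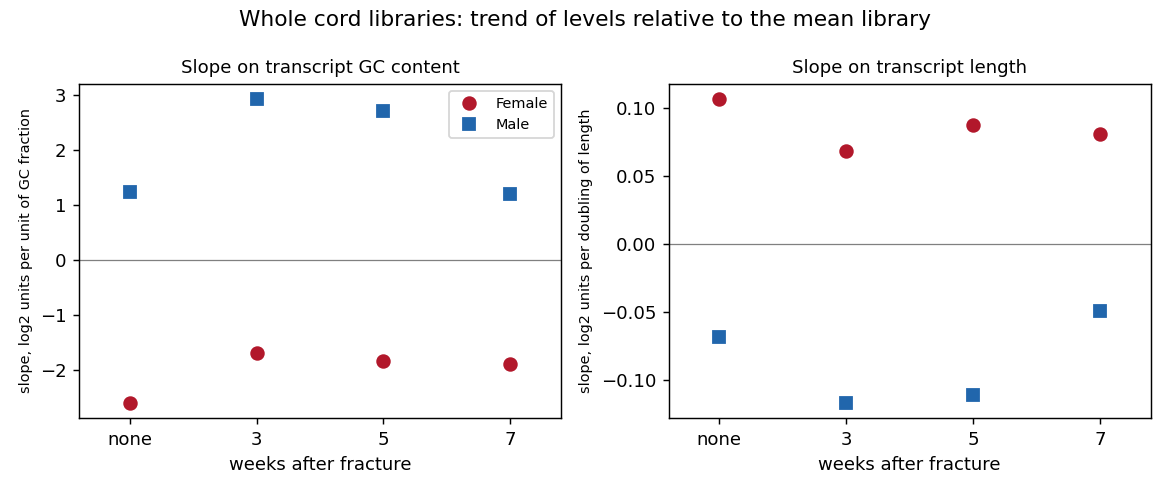
Slope of each Input library's levels, relative to the mean library, on the GC fraction (left, log2 units per unit of GC fraction) and on the length (right, log2 units per doubling) of a gene's longest transcript (circles, female; squares, male). Female and male libraries lie on opposite sides of 0, and from uninjured to 3 weeks the GC slope goes from -2.61 to -1.7 in the female and from 1.23 to 2.93 in the male.

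Leaving out each of the 4 libraries in turn kept 17 of the 73 rises and 5 of the 109 falls every time. Across all 17 alternatives, 18 genes lost their call only without the sex term. They were chosen by that result: Penk, Pdyn, Tac1, Npy, Sst, Adcyap1, Vgf, Scg2, Ptprn, Ecel1, Dbp, the receptor tyrosine kinase Alk and the unnamed model Gm20388 among the rises, and Gpr17, Gjb6, Gjc3, Tns3 and Anln among the falls.

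To see in which cells these transcripts were found, the same genes were read in Trap. Astrocyte markers summed to 68044 to 75294 CPM in the uninjured Trap libraries and neuronal markers to 930.6 to 1222 CPM. Of 16804 genes tested, 43.8% were over-represented in Trap against Input and 44.2% under-represented (88% in either direction). Of the 73 genes that rose in the cord, 38 (52.1%) were under-represented in Trap and 31 (42.5%) over-represented. Of the 109 that fell, 68 (62.4%) were over-represented in Trap and 38 (34.9%) under-represented, against 41.4% and 44.2% of all genes tested in the cord.

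The peptide precursors were nearly all scarce in Trap: 19 of 20 were under-represented, Nmb being the exception. All 18 neuronal markers were under-represented too, with a median log2 ratio of Trap to Input of -3.99. The log2 ratio of Trap to Input was -4.53 for Penk, -3.71 for Pdyn, -5.00 for Tac1, -4.53 for Gal and -4.32 for Vgf. Among the genes that fell, the ratio was positive for Gjb6 (3.31), Gja1 (3.43), Dio2 (3.25), Mt2 (3.09) and Tns3 (2.60). Gpr17 (-4.10), Neu4 (-3.54) and Mal (-2.57) were under-represented in Trap.

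In Trap at 3 weeks, 17 of 15380 genes were called (0.111%), 5 higher and 12 lower. The filter on low counts left Sprr1a, Crh, Nms and Fcgr1 untested in Trap. Sprr1a had 1 count in all over the uninjured Trap libraries and 10 over those at 3 weeks, and Crh had 6 and 28. Of the 68 cord rises tested there, 3 rose in Trap (0.0325% of all genes did), namely Nnat, Fgfrl1 and 2900052N01Rik, and 60 had a positive change. Of the 109 cord falls, 4 fell in Trap (0.078% of all genes did), Tns3, Gja1, Mat2a and its copy, and 92 had a negative change. Of all 14882 genes tested in both, 7562 had a positive and 7320 a negative change in Trap. Median changes were 0.31 in Trap against 0.52 in the cord for the rises, and -0.16 against -0.40 for the falls. Nnat, neuronatin, rose by 0.50 ± 0.08 in Trap and 0.54 ± 0.08 in the cord. Tns3 fell by 0.47 ± 0.09 in Trap and by 0.57 ± 0.06 in the cord, and Gja1 by 0.33 ± 0.06 and 0.29 ± 0.06.

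None of the 15 peptide precursors tested in Trap was called, and their median change was 0.48. Penk had a change of 0.97 ± 0.39 in Trap (adjusted p = 0.455), from 2.74 to 4.76 CPM in the uninjured libraries to 3.73 to 17.3 CPM at 3 weeks. The highest value came from the third female library at 3 weeks, which stood apart: its peptide precursors summed to 56.0 CPM against 14.9 to 25.3 CPM in the other 11 libraries, its neuronal markers to 1618 CPM against 783.4 to 1222 CPM, and its astrocyte markers to 55673 CPM against 67614 to 75294 CPM. Without it the median of the list in Trap was 0.19, Penk was at 0.39 ± 0.30 and Tac1 at 0.05 ± 0.44, instead of 0.81 ± 0.48. Without that library 47 genes were called in Trap instead of 17, and 59 of the 68 cord rises had a positive change there, with a median of 0.24.

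The test of the difference between the change in the cord and that in Trap called no gene of 17494 in edgeR (0%); 532 had an unadjusted p under 0.05, the smallest adjusted p was 0.149, and DESeq2 called 1. No change can therefore be placed outside astrocytes by this test. It compares changes and not levels, so RNA of other cells carried over into Trap cannot be told apart from astrocyte RNA. With each Input library paired with the first Trap library of the same stem, as a replicate block, 47 genes were called; they held 0 of the 73 cord rises and 5 of the 109 cord falls, among them Tsc22d3 (0.778 ± 0.115, adjusted p = 0.0111). Among the rises, the difference was 2.54 ± 0.59 for Atf3, 1.44 ± 0.31 for Angptl2, a secreted angiopoietin-like protein, and 1.21 ± 0.26 for Npy, with adjusted p of 0.41, 0.32 and 0.32. Their changes in Trap were -0.26 ± 0.27, -0.06 ± 0.15 and -0.23 ± 0.18. For Penk the difference was -0.05 ± 0.55, and for Tsc22d3, which was at -0.72 ± 0.15 in Trap, it was 0.25 ± 0.30 without the pairing.

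**Figure D5:**
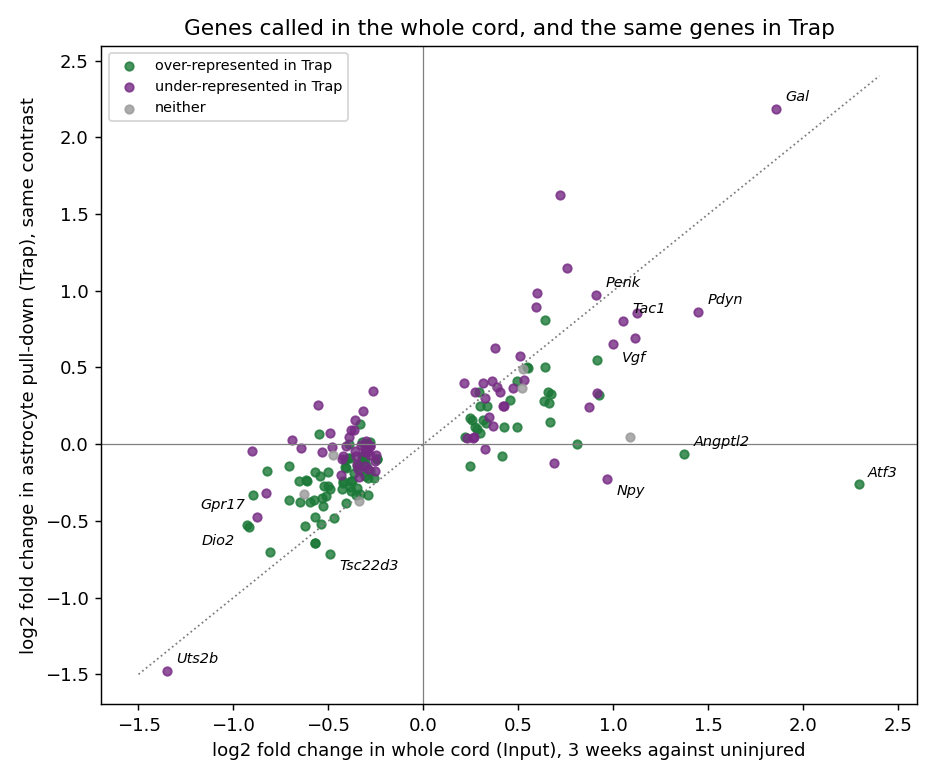
Log2 fold change at 3 weeks against uninjured for genes called in the whole cord (horizontal axis) and the same genes in Trap (vertical axis); green, over-represented in Trap against Input, purple, under-represented, grey, neither; Gdf1 lies beyond the axis, and genes not tested in Trap are left out. The dotted line marks equal changes; Penk (0.91 and 0.97) lies near it, and Atf3 (2.29 and -0.26) and Npy (0.97 and -0.23) lie below it.

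At 5 and 7 weeks fewer genes differed from the uninjured cord, and the peptide precursors Penk, Pdyn and Gal had smaller changes than at 3 weeks. These comparisons share the uninjured libraries, so their values are set side by side only. At 5 weeks 17 genes rose (0.101%) and 1 fell (0.00595%), and 4 of the 73 cord rises were among them: Vgf (0.40), Sst (0.38), Dbp (0.53) and Fzd10, a Wnt receptor (1.20, against 0.93 at 3 weeks). At 7 weeks 36 genes were called (0.214%), of which 32 rose (0.19%) and 4 fell (0.0238%), with Dbp (0.54) among the rises and Gdf1 and Tns3 (-0.37) among the falls. Penk was at 0.91, 0.22 and 0.10 at 3, 5 and 7 weeks, Pdyn at 1.45, 0.35 and 0.17, and Gal at 1.86, 0.56 and 0.38. Sprr1a was back to 0.0927 and 0.0545 CPM at 5 weeks. Gpr17 was at -0.88, -0.24 and -0.41.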

How the data were processed

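Bulk poly-A RNA-seq of mouse lumbar cord was used: 8 Input and 24 Trap libraries. Per the submitters' processing notes, reads went through FastQC, Trim Galore, STAR and RSEM on GRCm38, with versions not given in the sources used here. The authors deposited 1 table of expected counts for 55938 genes, of which 6.21 to 8.53% per library were not whole. Fractional counts divide reads between overlapping or near-identical genes, so such genes are uncertain. Totals were 17124034 to 23189228.

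Counts were rounded and tested with edgeR 4.0.16 (R 4.3.3, filterByExpr, TMM, robust quasi-likelihood fit, Benjamini-Hochberg adjustment, threshold 0.05), checked on simulated data. Input was fitted on 8 libraries with injury state and sex, which left 3 residual degrees of freedom; Trap was fitted on 24 libraries with a mean per sex and state. The difference and Trap-to-Input fits used all 32. CPM are scaled within Input or within Trap. Of the identifiers, 55141 matched a symbol in GENCODE M21; the others held 0.301% of counts.

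The genes named were up to 15 calls in each direction by size of change (mean of 1 CPM or more, unnamed models excluded) and up to 3 called members of each of 34 lists by p (up to 2 members where none was called), besides Vgf, Penk, Gal and Sprr1a; other genes named were chosen after their values were seen. Members and lists were chosen with earlier results of these data known. Alternatives were other size factors, filters and DESeq2 1.42.0, left-out libraries, no sex term and a replicate block; the GC and length trends and the list counts under each alternative were added after seeing the data.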

Additional observations from a re-analysis of the deposited data

How the results depend on the processing

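The count of 182 genes in the whole cord at 3 weeks was 165 with DESeq2 size factors, 167 without a filter, 196 with DESeq2, 709 when only the 4 libraries compared were fitted and 0 without the sex term. Higher calls made up 40.1% of the 182, 33.9% with size factors, 26.5% with DESeq2, 28.5% with only 4 libraries and 26.5% to 73.5% when 1 library was left out. Leaving out 1 Input library gave 34 (without the uninjured female) to 346 (without the female at 7 weeks), with 86 without the male at 3 weeks, 104 and 96 without the female and male at 5 weeks and 300 without the male at 7 weeks. Trap at 3 weeks gave 17 genes, 34 without a filter, 130 with DESeq2 and 3 to 47 when 1 library was left out. The difference between both changes gave 0 genes, 1 with DESeq2 and 0 to 1 when 1 library was left out. Trap against Input gave 14791 genes and 12634 to 17355 under its alternatives; DESeq2 size factors moved its median to -0.12 and changed the sign of 39 called genes, DESeq2 changed 39 and the fit of only the 8 uninjured libraries 46. No other comparison had a called gene that changed sign in the fits above. The cause of these shifts was not tested.

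The labels do not say whether replicate numbers pair the libraries. Deviations from group means of same-numbered Trap libraries, uninjured and at 3 weeks, correlated at -0.0254 to 0.112. That check did not include Input and cannot settle whether the libraries are paired. With the replicate block Trap gave 77 genes, and with Trap replicate 1 paired with Input as a replicate block the difference gave 47. With 1 Input library per sex and state, no paired analysis was possible for the whole cord because no second number exists there.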
